A study of Mus musculus with 2 samples.

Results

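PAX7 is a transcription factor with a paired domain and a homeodomain by which the stem cells of skeletal muscle are recognised, and PAX3 is its closest relative. In the embryo Pax3 acts in muscle progenitors and in the neural crest, while Pax7 is required to keep the stem cells of adult muscle. A factor that binds its own gene can sustain or limit its own transcription, so occupancy of Pax7 by its own product, set against the paralog Pax3, is a standard question for such a protein.

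Binding was mapped by chromatin immunoprecipitation with sequencing (ChIP-seq) in untreated muscle stem cells sorted from C57BL/6 mice of the genotype Pax7-YFP KI, a knock-in of yellow fluorescent protein at Pax7. There was 1 ChIP library, made with an antibody against GFP that also serves for the related YFP, and 1 input DNA library from cells of the same genotype. The labels do not say whether YFP is fused to the PAX7 protein, and without a fusion the anti-GFP peaks would not measure PAX7 itself. The number, age and pooling of the animals are not given in the sources used here. After filtering, 10622111 tags were left in the ChIP library and 20429667 in the input DNA. With 1 library per group reproducibility could not be tested, and ChIP from cells without the tag was not analysed here. A peak list holds no expression, so the cell type rests on the labels.

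The Pax7 and Pax3 loci were taken as the span of each gene with 200 kb on either side. Of the 2977 deposited peaks, 4 had their summit there, 3 at the Pax7 locus and 1 at the Pax3 locus. Pax7 (gene ID 18509) lies on chromosome 4 from 139737059 to 139833530 of GRCm38, on the minus strand. Pax3 (gene ID 18505) lies on chromosome 1 from 78101267 to 78197136. The Pax7 span of 96.5 kb and the Pax3 span of 95.9 kb were nearly equal, so each searched window covered 496 kb.

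Anti-GFP peaks lay at 2 places within the Pax7 gene and at none within Pax3. The remaining peak of the Pax7 window lay in the neighbouring gene Iffo2, and the single peak of the Pax3 window lay in Sgpp2. Each peak's pileup is the number of ChIP fragments over its summit, and its fold enrichment is that number over the local input background after 1 is added to each; these and the q-values are the authors' own values. The q-values compare the ChIP library with the input at each place and do not measure variation between animals. Intervals given with the pileups and folds are exact Poisson 95% intervals of the pileup, with the background held fixed, and cover counting error only.

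**Figure D1:**
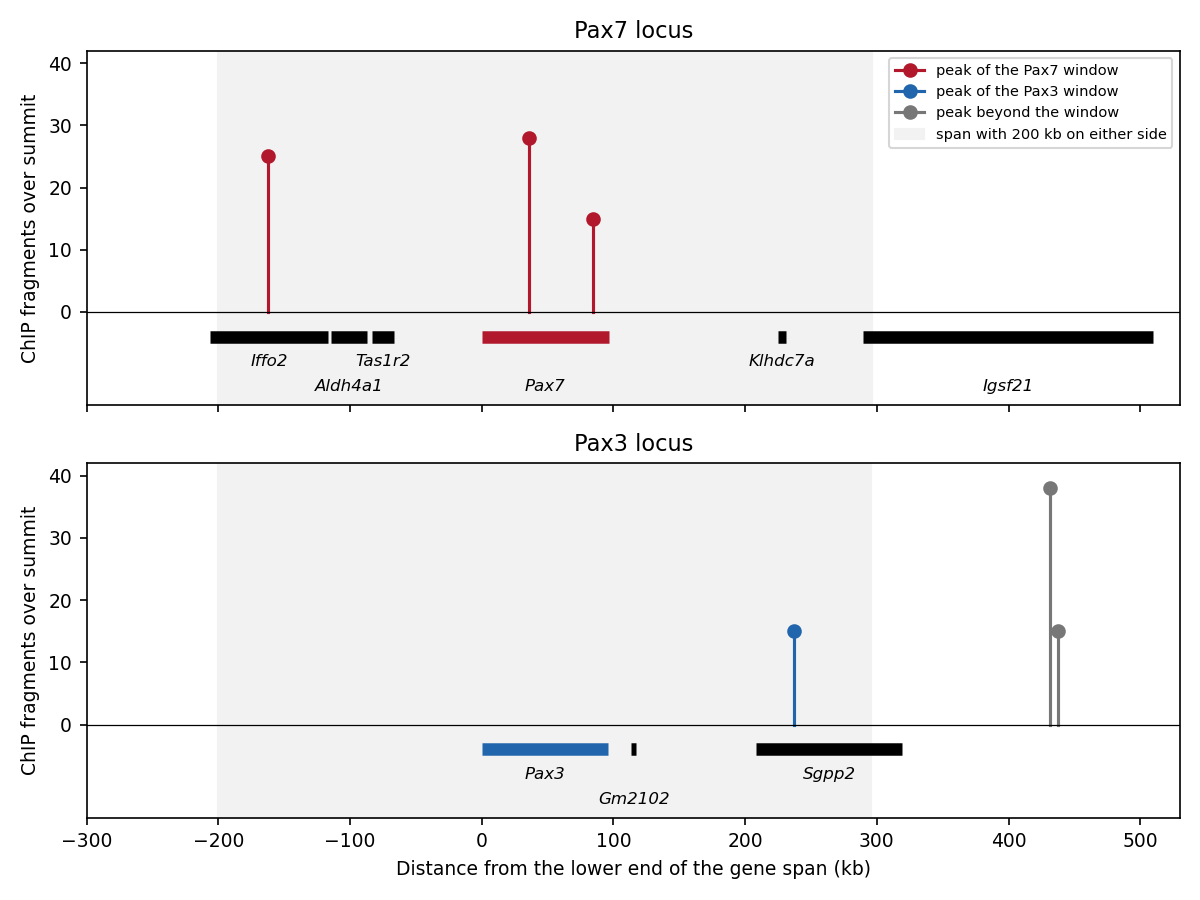
Pileup at each summit (ChIP fragments, y axis) against distance from the lower end of the Pax7 span (top) or the Pax3 span (bottom) in kb. Bars below 0 are protein-coding genes that overlap the windows, and genes wholly beyond them are not drawn. Red and blue points are peaks of the 2 windows (shaded) and grey points lie beyond them. The Pax7 bar holds points at 28 and 15 fragments, while the Pax3 bar holds none. The tallest grey point, at 38 fragments, lies in Mogat1, which has no bar.

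Of the sequence at these peaks, the reference tables held only a stretch at the Iffo2 peak, and of the start sites of the paralogs only that of Pax7, so these stretches are shown here, both 5′ to 3′ from RefSeq on GRCm38.p6. The Pax7 stretch, chr4:139832919-139833218 on the minus strand, surrounds the listed start site at 139832968 and overlapped no peak. Its capitals mark the 50 bases transcribed from that start site. The Pax7 span reaches further upstream, to 139833530, so the lowercase bases also lie within the annotated gene. The Iffo2 stretch, chr4:139574470-139574769 on the plus strand, ends after an internal start site at 139574720, and capitals mark the 105 bases that fall inside the peak, whose summit lies 44 bp before the stretch.
Pax7 promoter: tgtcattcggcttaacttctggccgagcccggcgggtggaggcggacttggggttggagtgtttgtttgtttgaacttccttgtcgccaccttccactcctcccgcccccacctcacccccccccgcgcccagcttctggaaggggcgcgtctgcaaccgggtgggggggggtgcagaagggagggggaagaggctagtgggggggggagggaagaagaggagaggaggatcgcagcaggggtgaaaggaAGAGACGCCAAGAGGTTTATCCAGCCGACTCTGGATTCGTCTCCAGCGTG
Iffo2 internal promoter: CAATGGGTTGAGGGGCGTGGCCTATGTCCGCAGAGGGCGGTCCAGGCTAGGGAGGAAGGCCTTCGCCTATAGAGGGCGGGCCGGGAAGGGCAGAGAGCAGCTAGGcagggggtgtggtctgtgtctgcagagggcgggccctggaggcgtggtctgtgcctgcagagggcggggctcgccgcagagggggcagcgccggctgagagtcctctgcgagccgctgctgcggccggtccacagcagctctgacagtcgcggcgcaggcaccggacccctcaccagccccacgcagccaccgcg

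Both stretches were rich in G and C, at 63.7% for Pax7 and 71.7% for Iffo2, against a median of 52.7% over the 32851 promoter stretches of the same length. Searched on both strands, neither stretch held AATNNATT, the core of the homeodomain dimer site, which 6.60% of all promoter stretches held. Neither held GTCACGC, the core of the paired domain site (2.09% of all promoter stretches), nor the E-box CAGCTG (16.3%), the site of the MyoD family. These counts say only that the letters are not in these windows. Of all promoter stretches, 821 (2.50%) overlapped a peak.

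The stronger peak within Pax7 stood near the top of the list. It ran from 139772599 to 139772954 on chromosome 4, with a pileup of 28 ChIP fragments (18.6 to 40.5) against a scaled input background of 0.977 fragments. This gave a fold enrichment of 14.7 (9.92 to 21.0) and a −log10 q of 26.1. By fold it ranked 48 of 2977, with 98.0% of the peaks lower, and by −log10 q it ranked 54. By pileup it ranked 87, a place it shared among 21 peaks with the same count, because peaks over a higher background can have more fragments and a lower fold. At 356 bp it was wider than 86.5% of all peaks. The summit lay 60.2 kb downstream of the listed start site, 63.0% of the way along the span in the direction of transcription and 35.7 kb before its far end. No exon table was used here, so exon or intron is not given.

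The weaker peak within Pax7 was an ordinary member of the list. Lying from 139821525 to 139821715, it had 15 fragments (8.40 to 24.7) over the same background of 0.977, which gave 8.09-fold (4.75 to 13.0) and a −log10 q of 9.51. The median of all peaks was likewise 15 fragments, and 282 peaks shared that count. By fold this peak ranked 984, with 63.2% of the peaks lower, and at 191 bp it was narrower than the median of 230 bp. Its summit lay 11.4 kb downstream of the Pax7 start site, 12.3% along the span, and 48.9 kb from the summit of the stronger peak. Neither peak within Pax7 was therefore at the start of the gene. The stronger had 1.87 times the fragments of the weaker, with an exact conditional interval of 0.964 to 3.76, so a difference in height was not detectable at this depth.

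The peak in Iffo2, which encodes an intermediate filament family orphan protein, belonged to the Pax7 window by distance only. It ran from 139574307 to 139574574 and had 25 fragments (16.2 to 36.9) over a background of 0.977, a fold of 13.2 (8.69 to 19.2) that ranked 101. Its summit was 163 kb beyond the far end of Pax7 and 294 bp before the internal Iffo2 start site shown above. In the promoter table, 667 of 2880 peaks (23.2%) had a summit within 300 bp of a listed start site, and of the 4 peaks at the Pax7 and Pax3 loci this was the only such peak. The genes Aldh4a1, an aldehyde dehydrogenase gene, and Tas1r2, a sweet taste receptor gene, lie between it and Pax7 and held no peak. On the other side of Pax7, Klhdc7a and Igsf21, an immunoglobulin superfamily gene, held none either. The lncRNA Gm46873, which begins within the Pax7 span, held no peak. Outside the window the nearest summits were 1227 kb and 2340 kb from Pax7, so the 3 peaks stood alone in a long stretch of chromosome 4.

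The only peak of the Pax3 window matched the weaker Pax7 peak in height. It lay in Sgpp2, a sphingosine phosphate phosphatase gene, from 78338357 to 78338584 on chromosome 1, and had 15 fragments (8.40 to 24.7). Over a background of 1.04 this was 7.84-fold (4.61 to 12.6), with a −log10 q of 9.16 and rank 1130. Its summit was 141 kb beyond the upper end of the Pax3 span and 28.1 kb downstream of the Sgpp2 start site. The protein-coding gene Gm2102, which lies between Pax3 and Sgpp2, held no peak. Like the Iffo2 peak, the Sgpp2 peak belonged to its window by distance only. The strongest of the 3 peaks of the Pax7 locus had 1.87 times the fragments of the Sgpp2 peak (0.964 to 3.76). A difference in height between these 2 peaks was not detectable at this depth. The interval does not allow for the choice of the highest of 3. The difference in number, 3 peaks against 1, was not tested.

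**Figure D2:**
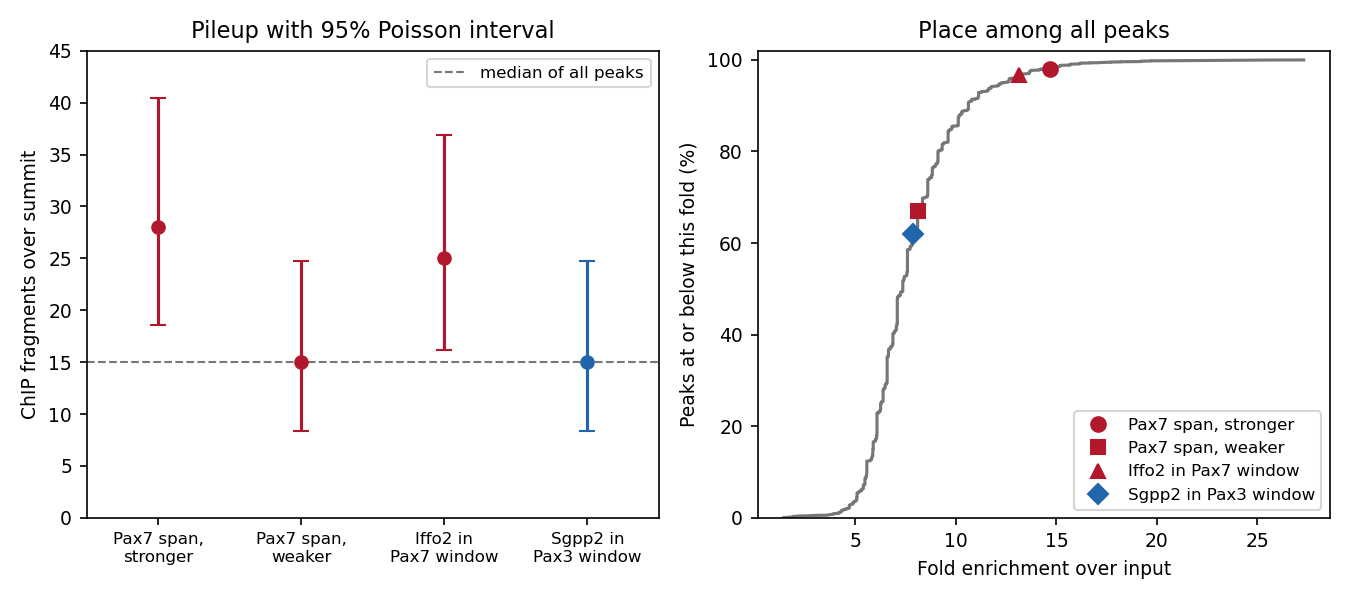
Left, ChIP fragments over the summit of each of the 4 peaks, with exact Poisson 95% intervals and the median of all peaks (15, dashed). Right, share of all 2977 peaks (%) at or below each fold enrichment, with the 4 peaks marked in red (Pax7 window) or blue (Pax3 window): the stronger peak within Pax7 and the Iffo2 peak lie on the upper shoulder at 14.7-fold and 13.2-fold, and the other pair lie near the middle at 8.09-fold and 7.84-fold.

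Beyond the Pax3 window stood a far stronger peak. In Mogat1, a monoacylglycerol acyltransferase gene, 38 fragments gave 19.7-fold (14.1 to 26.9) at 78532405 to 78532867, rank 7 of the list by fold. Its summit was 335 kb from Pax3, and Sgpp2 and Farsb lie between them. On the other side the nearest summit was 672 kb away within Epha4, an ephrin receptor gene, at 8.60-fold (5.13 to 13.6). With a window of 500 kb the Pax3 locus held 3 peaks and its highest fold was that of Mogat1, above the highest of Pax7, which still held 3. The order of the loci by highest fold thus depended on the window, while the counts inside the gene spans did not use it. The interval of the Mogat1 peak overlaps that of the strongest Pax7 peak (9.92 to 21.0).

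The input background was low at all 4 peaks. At the 3 peaks of the Pax7 window the background was at the genome-wide floor of 0.977 scaled fragments, or 1.88 fragments before scaling, as at 1313 of all peaks (44.1%). The caller takes the highest of the genome-wide value and the local input windows, so the input around these 3 summits was at or below the genome average. The Pax3 window peak had a background slightly above that floor, at 1.04 scaled fragments or 2 input fragments before scaling. The lowest pileup in the list was 9 fragments, and a place without a peak, such as the Pax7 start site or the whole Pax3 span, is one that did not pass the caller's limit, not one shown to be unbound.

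Set against other genes, peaks within the gene were uncommon and peaks in a window of this size were not. A summit lay inside the span of 1195 of 21770 protein-coding genes (5.49%), and 207 genes (0.951%) held 2 or more, as Pax7 did. Among genes with a span of 50 to 200 kb, which are nearer to Pax7 in length, 10.6% held at least 1 and 1.95% held at least 2. A summit at or above the fold of the stronger Pax7 peak lay inside 32 genes (0.147%), Pax7 included. Counted with 200 kb on either side, 46.7% of the genes had at least 1 peak, as Pax3 did, and 8.60% had 3 or more, as Pax7 did. The nearest summit was at least as far away as that of Pax3 for 60.3% of the genes. At 141 kb, the Pax3 value was below the median of 223 kb over all genes. These shares describe the list and are no test.

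Besides Pax7, 138 genes held exactly 2 summits in their span. The most alike in the pileup of the stronger summit were Atp2b1, a plasma membrane calcium pump gene, with 28 fragments, Zfp568, a zinc finger gene, with 29, and Dtx4, a Deltex family ubiquitin ligase gene, with 27. This likeness was measured in 1 library. The summits lay 48.9 kb apart in Pax7, against 0.369 kb in Atp2b1, 0.868 kb in Zfp568 and 3.07 kb in Dtx4. The spans of Zfp568 (44.3 kb) and Dtx4 (35.9 kb) are too short to hold summits as far apart as those of Pax7. The median over the 138 genes was 19.9 kb, and 43 of them (31.2%) had summits at least as far apart as those of Pax7. Both values include genes too short to hold such a distance.

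Among the 9 Pax genes, which share the paired domain, Pax7 was the only member with a summit inside its span. This made 1 of 9 (11.1%), against 5.49% of all protein-coding genes, a share at which no summit inside the other 8 genes is unremarkable. Among genes spanning 50 to 200 kb, as Pax7 does, the share was 10.6%. Of the 9, 6 had none within 200 kb (3 of 9 with a peak, 33.3%, against 46.7% of all protein-coding genes). Pax2, a regulator of kidney and inner ear development, had 3 peaks in its window, as many as Pax7, but all lay outside the gene, at 6.58-fold to 6.86-fold and with the nearest at 62.3 kb. Pax5, the B cell member, and Pax6, known for its role in the eye, had their nearest summits at 308 kb and 357 kb. For Pax9, Pax8, Pax1 and Pax4 the nearest were at 687, 749, 918 and 2179 kb. The median distance for the family was 357 kb, against 223 kb for all genes. With 9 genes these values describe the family only.

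**Figure D3:**
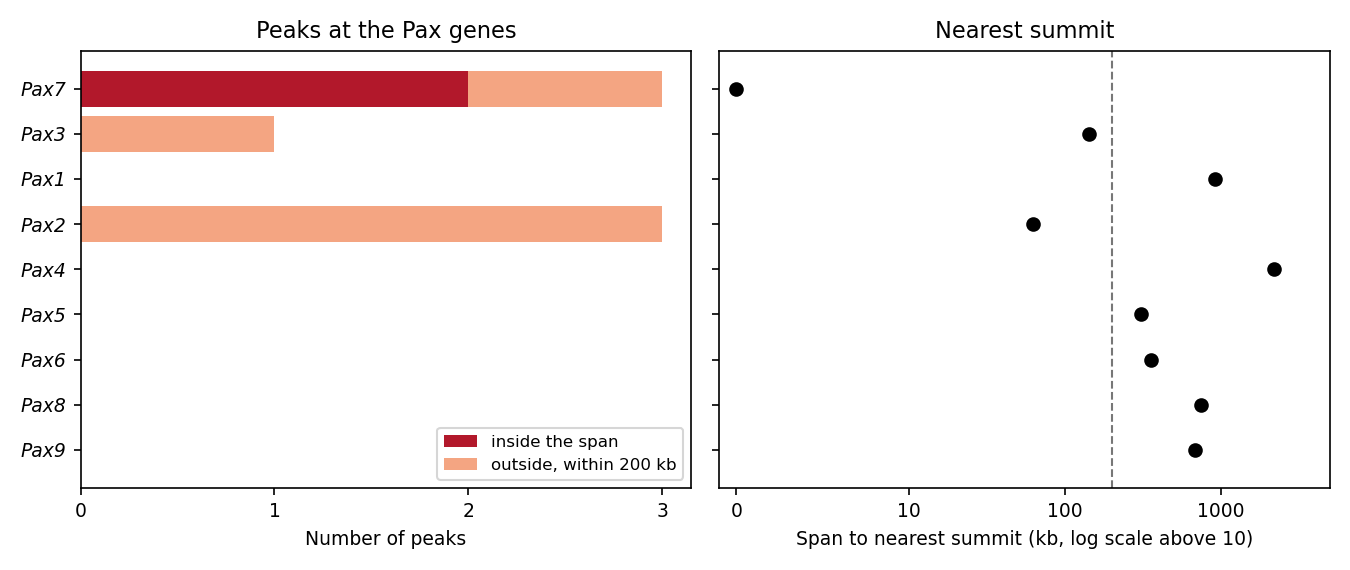
Left, number of peaks inside the span (dark) or outside it within 200 kb (light) for each Pax gene. Right, distance in kb from the span to the nearest summit (log scale above 10, dashed line at 200 kb): Pax7 is at 0, Pax2 and Pax3 lie left of the line at 62.3 and 141 kb, and the other 6 genes lie beyond it.

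Genes for proteins known to work with PAX3 or PAX7 gave a mixed picture. Of 17 such genes, 2 had a summit inside the span (11.8%, against 5.49% of all genes) and 9 had at least 1 within 200 kb (52.9%, against 46.7%). These shares were not matched for gene length, and of genes spanning 50 to 200 kb 10.6% held a summit. Hira, a histone chaperone gene of 93.6 kb, held a peak of 7.59-fold (4.38 to 12.4). Eya4, a transcriptional coactivator gene of 248 kb, held a peak of 7.06-fold (3.99 to 11.7). Daxx, another histone chaperone gene, had 3 peaks in its window, the nearest 0.461 kb outside the gene and the strongest at 10.1-fold (6.29 to 15.5). Kmt2d, a histone methyltransferase gene, had its nearest summit at 44.0 kb and 9.10-fold (5.51 to 14.3). Carm1, whose product methylates PAX7 in the mouse, had 1 at 36.5 kb and 6.07-fold (3.28 to 10.5), and Paxbp1, an adaptor between PAX proteins and methyltransferases, had 1 at 79.2 kb and 6.94-fold (4.002 to 11.3). Meox1, a somite homeobox gene, had 3 peaks, the strongest at 7.84-fold (4.61 to 12.6). Six4, a homeobox gene upstream of the myogenic factors, had 1 at 33.4 kb and 4.69-fold (2.54 to 8.08). None of these 9 genes reached the 14.7-fold of Pax7. Of those named, all except Six4 had an interval overlapping that of Pax7 (9.92 to 21.0). Overlap of separate intervals does not show equal heights, and ratios of pileups to that of Pax7 were not computed for these genes.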

How the data were processed

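The samples were 1 GFP ChIP library and 1 input DNA library, grouped by antibody and title in the labels. Per the file headers, MACS 2.1.1.20160309 compared 1 library with the other under a q-value limit of 0.01, with at most 1 tag per position, fragments of 172 bp and local windows of 1000 and 10000 bp. GRCm38, bcl2fastq and HISAT2 are named per the submitters' processing notes. Pileups were deposited as a coverage signal without scaling. Fold enrichments were deposited as a ratio, in which 1 is added to the pileup and to the background, the input being scaled by 0.520. Significance was deposited as −log10 of the caller's p-value and as −log10 of its q-value.

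From these values the background was recovered from pileup and fold. Intervals are exact (95%) and cover counting error. Genes came from a GRCm38.p6 table, scaffolds left out (21770 protein-coding), and start sites from the promoter table, in which Pax3 was not matched and which covered the chromosomes of 2880 peaks. Peak counting was tested on simulated data. Python 3.11.15, pandas 2.3.3 and scipy 1.17.1 were used. The genes named were Pax7, Pax3, their window and list members with peaks, and the 3 genes most like Pax7. Epha4, Mogat1, Farsb and the Pax genes without a peak in their window were added after values were seen. Some values that this rule names are not reported here. Members and lists were chosen with earlier results of these data known. Proteins and peak sequences by coordinate were not analysed here.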

Additional observations from a re-analysis of the deposited data

How the results depend on the processing

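Other settings tried were windows of 100 kb and 500 kb, a stricter list holding the peaks whose −log10 q was not below the median, and any overlap in place of the summit. Of 32 values under these and under settings added later, 23 stayed within 1.5 times or within the counting interval of the value reported, 8 moved beyond it and 1 turned round. At 100 kb the Pax3 locus had 0 peaks, so no fold or ratio could be given, and 3.08% of genes had 3 or more peaks. At 500 kb the Pax3 locus had 3 peaks with a highest fold of 19.7, the ratio of the strongest pileups, Pax7 over Pax3, turned to 0.737, 28.3% of genes had 3 or more peaks and 5 Pax genes had a peak. The Pax3 values changed because the wider window took in Mogat1. No interval was computed for the ratio at 500 kb, and the fold intervals of the 2 strongest peaks overlap. In the stricter list all 4 peaks stayed, while 2.49% of genes had 3 or more peaks and 4 of the 17 cofactor genes had a peak. Settings were also added after seeing the data. By distance from the Pax7 start site, 2 peaks lay within 200 kb, and among genes of 50 to 200 kb 8.67% had 3 or more peaks. No paired analysis was possible because each group had 1 library, and no library could be left out. The depth limits the heights: 15 and 28 fragments could not be told apart.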
